A study of Rattus norvegicus with 20 samples.

Results

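Respiratory complex I genes were followed in whole blood of 20 Wistar rats, hybridised 1 rat per array to 1-colour Agilent rat arrays. The genes were taken by name: every probe whose gene symbol starts with Nduf, together with the assembly factor genes Timmdc1, Ecsit, Acad9, Tmem126b and Nubpl. This gave 67 of 30367 probes, for 53 genes: 7 core subunits, 33 accessory subunits (copies of subunit genes included) and 13 assembly factors. A gene on neither the core nor the assembly list was counted as accessory by its name alone, Ndufa4 among them. Timmdc1 was chosen by its measured values, because it was lower in untreated than in sham rats, so its values in any comparison that uses sham or untreated arrays are a description with no test. No probe was matched to Foxred1 or to the subunits encoded in mitochondrial DNA, which are not analysed here.

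Sham rats had a sham operation, and the other groups had surgically induced reflux esophagitis that was left untreated or treated with STW5 (a herbal preparation) at 0.5 or 2 ml/kg, or with omeprazole (a proton pump inhibitor) at 30 mg/kg. Treatment ran for 7 days before surgery and 10 days after it, and each group held 4 rats. Sham and untreated arrays shared 1 slide, both STW5 doses shared another and omeprazole had the third, so treatment and slide cannot be told apart between slides. The titles of the arrays and the series' own numbering of the groups give the STW5 doses in opposite order, and the authors' value table follows the other order in 8 of its columns. The titles were followed, and each statement on a single dose rests on that choice.

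Complex I is the entry point of the respiratory chain for electrons from NADH. Its core subunits carry the flavin and the iron-sulfur clusters or the proton pumps, its accessory subunits surround and stabilise that core, and assembly factors build the arms of the complex in steps and then leave it. Circulating red cells of the rat include reticulocytes, which still hold RNA and some mitochondria, so whole blood RNA mixes transcripts of red cells, platelets and white cells. In such bulk samples, fewer cells of a type and less RNA per cell cannot be told apart.

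A level is log2 of a probe's processed signal minus log2 of the 75th percentile of the signal on its array, so 0 is the 75th percentile and a step of 1 is a 2-fold difference. Levels are compared for the same probe between arrays only. The 75th percentile ranged from 71.3 to 308 units of intensity over the 20 arrays, and was 151.8 to 308 with STW5 at 0.5 ml/kg against 71.3 to 163 with 2 ml/kg. Of the 53 genes, 51 had a probe well above background on at least 4 arrays and were tested. The accessory subunit gene Ndufa7 and the assembly factor gene Ndufaf2 were well above background on 0 arrays and were not tested.

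The probes of Timmdc1 and of the Ndufb4 copies carry the results below, and their 60 bases, 5′ to 3′, are shown first. No base is marked by capitals.
Timmdc1: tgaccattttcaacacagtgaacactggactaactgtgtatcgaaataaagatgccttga
Ndufb4l1: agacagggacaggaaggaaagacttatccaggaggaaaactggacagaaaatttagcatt
Ndufb4l3: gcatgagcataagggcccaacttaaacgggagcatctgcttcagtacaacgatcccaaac
Ndufb4, second probe: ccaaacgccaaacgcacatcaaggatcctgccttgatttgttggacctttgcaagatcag
In the rn4 build the Timmdc1 probe lies at chr11:64015746-64017204 on the plus strand, a span of 1459 bases for a probe of 60, so it crosses an intron. The Ndufb4l1 probe lies at chr14:7547999-7548058 and the Ndufb4l3 probe at chr1:87364929-87364988, both without a gap. The second Ndufb4 probe spans chr11:64852760-64857511 and also crosses an intron. The longest run of bases that the Ndufb4l1 probe shares with a probe of any other gene on the array is 14. Probes were compared with other probes only, not with transcripts, so whether the Ndufb4l1 probe also reads Ndufb4 transcripts was not tested. The levels of Ndufb4 below come from its brightest probe, which is not printed and shares a run of 36 bases with a probe of the array that carries no gene name. The second probe, printed above, shares no run of 14 or more bases with a probe of another gene.

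Timmdc1, a membrane protein that helps to assemble the membrane arm of complex I, had its lowest levels in untreated rats. In sham rats its level was -1.65, -1.96, -2.20 and -2.53. In untreated rats it was -3.25, -3.86, -3.98 and -3.32. All 4 untreated arrays lay below all 4 sham arrays, and the mean was -3.60 ± 0.37 (SD, n = 4) against -2.09 ± 0.37. The difference was -1.51 ± 0.23 (log2, SE), a 2.86-fold lower level, and it is the value by which the gene was chosen. With normexp background, a correction that adds an offset of 50 units of intensity before scaling, it was -0.68.

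In Timmdc1 the means of the treated groups lay between those of untreated and sham rats. STW5 at 0.5 ml/kg gave -2.73, -2.40, -2.91 and -2.98, and 2 ml/kg gave -3.07, -3.44, -3.20 and -3.26. Omeprazole gave -2.76, -2.64, -2.50 and -2.94. All omeprazole and all 0.5 ml/kg arrays were above all untreated arrays, while 2 ml/kg overlapped them. Against untreated rats the log2 differences were 0.89 ± 0.23 with omeprazole, 0.85 ± 0.23 with 0.5 ml/kg and 0.36 ± 0.23 with 2 ml/kg. These 3 share the untreated arrays by which the gene was chosen. With normexp background the first was 0.33 and the second 0.13. The value for 0.5 ml/kg was 0.27 in the authors' value table and 0.36 with the doses exchanged.

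Only 2 comparisons of Timmdc1 use neither sham nor untreated arrays. The level at 2 ml/kg was below that at 0.5 ml/kg on all 4 arrays, by 0.49 on the log2 scale, with a 95% interval of -0.98 to -0.0047, and the difference did not pass over all genes (limma adjusted p = 0.185). It had the opposite sign, 0.40, when the background was corrected by normexp. Omeprazole differed from the mean of both STW5 doses by 0.29 ± 0.20, with a 95% interval of -0.13 to 0.71 (limma adjusted p = 0.618). The probe is dim: it was well above background on 3 sham, 2 untreated, 4 STW5 0.5 ml/kg, 1 STW5 2 ml/kg and 3 omeprazole arrays.

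**Figure D1:**
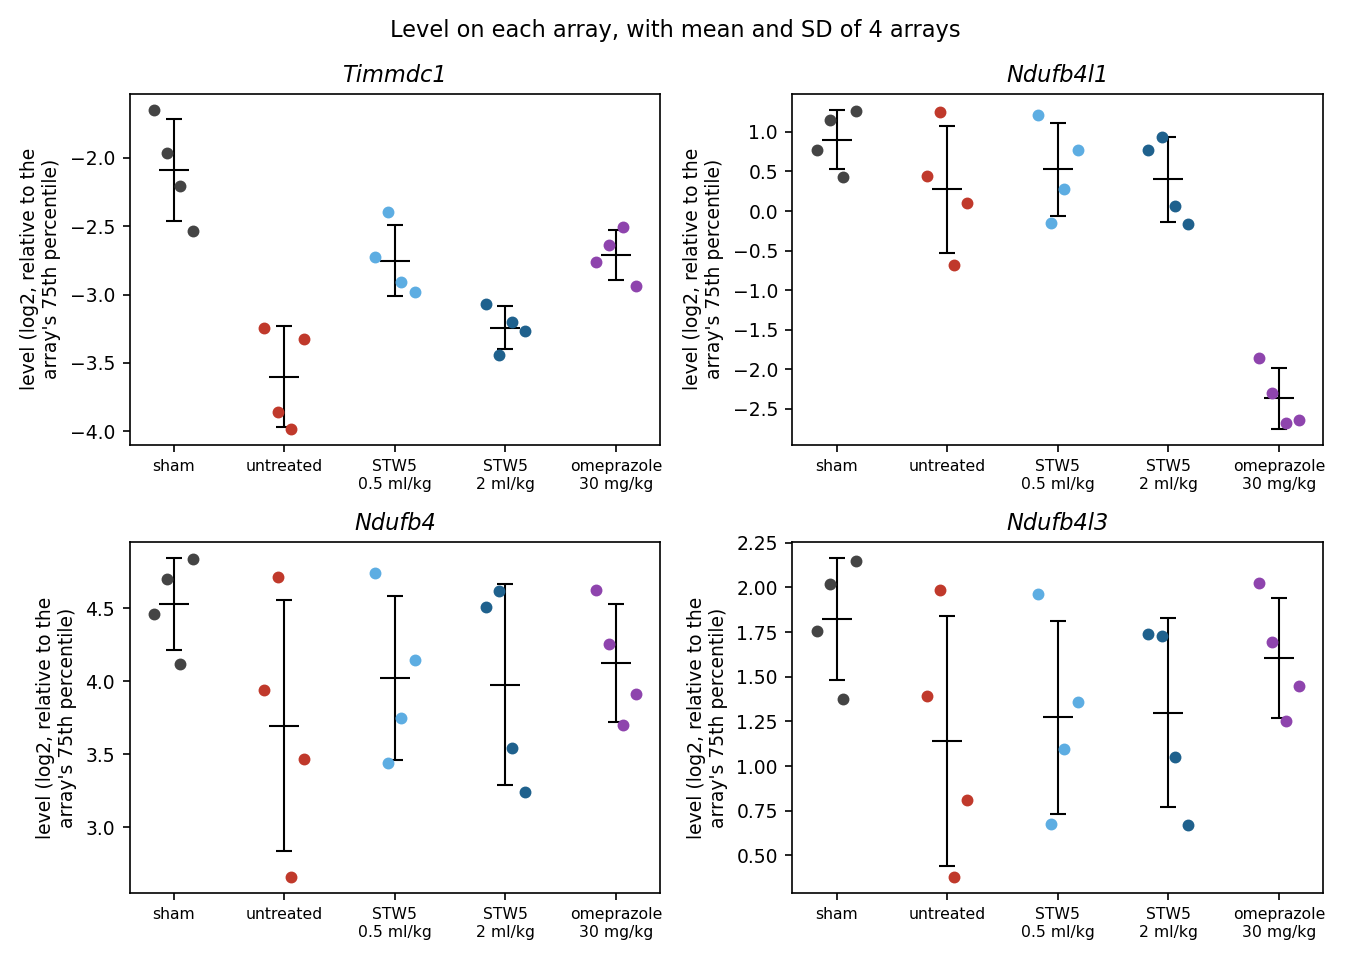
Level of Timmdc1, Ndufb4l1, Ndufb4 and Ndufb4l3 (log2 relative to the array's 75th percentile) on each of 4 arrays per group, with the group mean and SD. Timmdc1 is lowest in untreated rats, and Ndufb4l1 is lower on all 4 omeprazole arrays than on any other array, while Ndufb4 and Ndufb4l3 overlap between groups.

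Ndufb4l1, a copy of the gene for the accessory subunit Ndufb4 of the membrane arm, passed the test and was lower with omeprazole. Of the 50 complex I genes counted with Timmdc1 left out, no other passed in any comparison. The level of Ndufb4l1 was 0.77, 1.15, 0.44 and 1.26 in sham rats and 0.44, 1.25, -0.68 and 0.10 in untreated rats. With STW5 it was 1.21, -0.16, 0.28 and 0.77 at 0.5 ml/kg and 0.77, 0.94, 0.058 and -0.17 at 2 ml/kg. With omeprazole it was -1.85, -2.30, -2.68 and -2.64. The omeprazole arrays lay below every other array, and the probe was well above background on all 20 arrays.

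Ndufb4l1 fell by 2.64 ± 0.38 (log2, SE) with omeprazole against untreated rats (6.25-fold, limma adjusted p = 9.72e-05, 4 of 4 arrays below). Against the mean of both STW5 doses it fell by 2.83 ± 0.33 (limma adjusted p = 4.86e-06). Against sham rats it fell by 3.27 ± 0.38 (limma adjusted p = 7.63e-06). These 3 comparisons share the omeprazole arrays, which were alone on their slide, so slide and treatment cannot be told apart. With normexp background the first difference was -1.44, still past the threshold.

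Neither Ndufb4 nor the copy Ndufb4l3 passed the test. Ndufb4 was at 4.62, 4.26, 3.70 and 3.91 with omeprazole and at 3.94, 4.72, 2.66 and 3.47 in untreated rats, a difference of 0.43 ± 0.40 (limma adjusted p = 0.617). Its second probe, the one printed above, differed by 0.46 ± 0.39. Ndufb4l3 differed by 0.46 ± 0.35 (limma adjusted p = 0.533). Among the arrays without omeprazole, untreated array 3 was the lowest in Ndufb4, Ndufb4l1 and Ndufb4l3. Within each group, omeprazole included, the 4 arrays ranked in the same order in Ndufb4 and Ndufb4l1. In sham rats Ndufb4 was at 4.46, 4.70, 4.12 and 4.84, where Ndufb4l1 was at 0.77, 1.15, 0.44 and 1.26. Ndufb4l1 had 1 probe, so no second probe could be set beside its fall with omeprazole.

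Among the core subunits, which bind flavin and iron-sulfur clusters, none of 7 passed in any of the 9 comparisons. Ndufv1, which holds the flavin, was at 3.1, 3.33, 3.20 and 3.26 in sham, 3.15, 3.22, 3.52 and 3.59 in untreated, and 3.27, 3.32, 3.28 and 3.40 in omeprazole rats. Its partner Ndufv2 was at 1.42, 1.98, 0.11 and 1.68 in untreated rats against 1.52 to 2.15 in sham rats. Untreated array 3 alone lay far below the others in Ndufv2. Ndufs1, the largest core subunit, was at -1.19, -0.62, -0.28 and -0.55 with 2 ml/kg and at -0.18, 0.33, 0.052 and -0.023 with 0.5 ml/kg, so the doses did not overlap. That difference was -0.70 ± 0.21 and did not pass (limma adjusted p = 0.0904).

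Ndufs8, which carries iron-sulfur clusters, differed by 0.57 ± 0.25 between omeprazole and untreated rats (limma adjusted p = 0.277). Ndufs3 was between 0.54 and 1.38 and Ndufs7 between 2.49 and 3.40 over all 20 arrays, with overlapping groups.

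**Figure D2:**
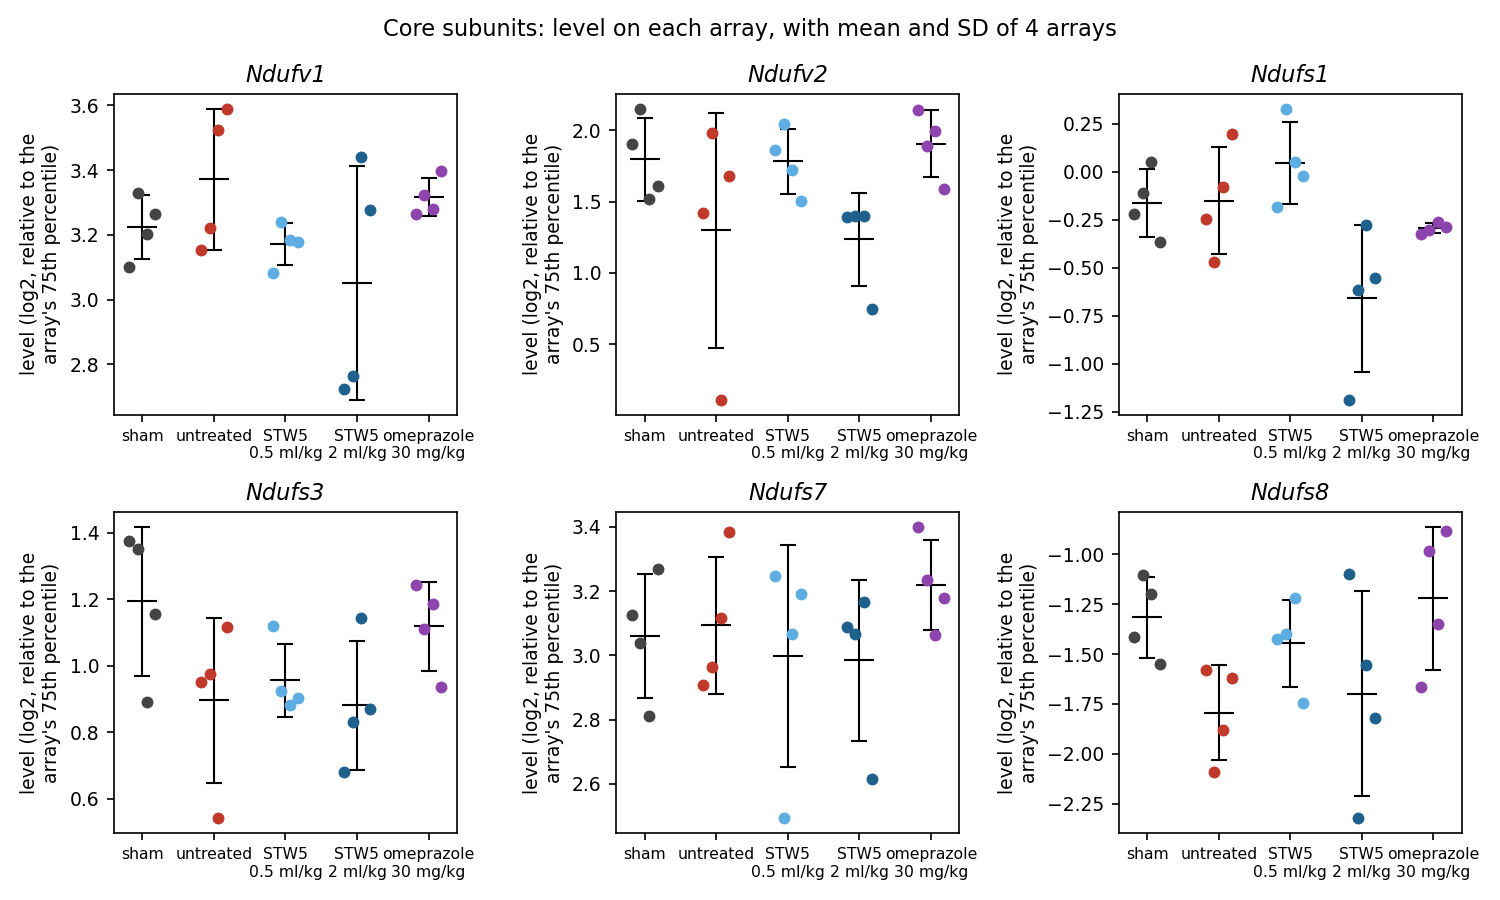
Levels of 6 core subunit genes (log2 relative to the array's 75th percentile) on each of 4 arrays per group, with mean and SD. Groups overlap in most panels, and 1 untreated array is low in Ndufv2.

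Of the 32 accessory subunits tested, none but Ndufb4l1 passed in any comparison. Ndufa12, a subunit of the matrix arm, was at 6.14, 5.49, 5.56 and 6.05 in sham rats and at 5.67, 5.60, 2.71 and 3.77 in untreated rats. The first 2 untreated arrays were within the sham range and the other 2 far below it. The difference was -1.37 ± 0.59 (limma adjusted p = 0.263). Ndufa3 was lower on all 4 untreated arrays, at 4.20 to 5.13 against 5.14 to 5.64 in sham rats, and differed by -0.79 ± 0.32 (limma adjusted p = 0.255).

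Ndufa1, a small membrane subunit needed for assembly, was at 8.24, 8.14, 6.99 and 7.45 with 2 ml/kg and at 7.31, 6.2, 6.37 and 7.13 with 0.5 ml/kg, a difference of 0.95 ± 0.39 that did not pass (limma adjusted p = 0.141). It turned to -0.39 with array signal as a covariate. Ndufb10 differed by -0.34 ± 0.16 between omeprazole and untreated rats (limma adjusted p = 0.318), with no overlap, while its second probe differed by 0.48 ± 0.23. The 2 probes of this gene disagree in sign. Of the 9 genes with a second tested probe, 5 had the same sign with both probes in that comparison, against 9 of 9 in untreated against sham rats. The count was 4 of 9 in omeprazole against the STW5 mean and 8 of 9 in omeprazole against sham rats. Comparisons without omeprazole arrays gave 6 to 9 of 9.

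Among the other assembly factors none passed. Ndufaf7, a mitochondrial methyltransferase that acts in assembly, was at -1.71, -1.79, -2.10 and -3.49 with 2 ml/kg and at -1.39, -1.0, -0.29 and -1.94 with 0.5 ml/kg. The doses overlapped, and the difference was -1.12 ± 0.38 (limma adjusted p = 0.107). Acad9, an acyl-CoA dehydrogenase relative that serves in assembly, differed by -0.65 ± 0.27 between 2 ml/kg and untreated rats (limma adjusted p = 0.154). Tmem126b, of the same intermediate, differed by 0.43 ± 0.25 between 0.5 ml/kg and untreated rats (limma adjusted p = 0.952). Ndufaf1, its partner, was well above background on 4 arrays only.

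**Figure D3:**
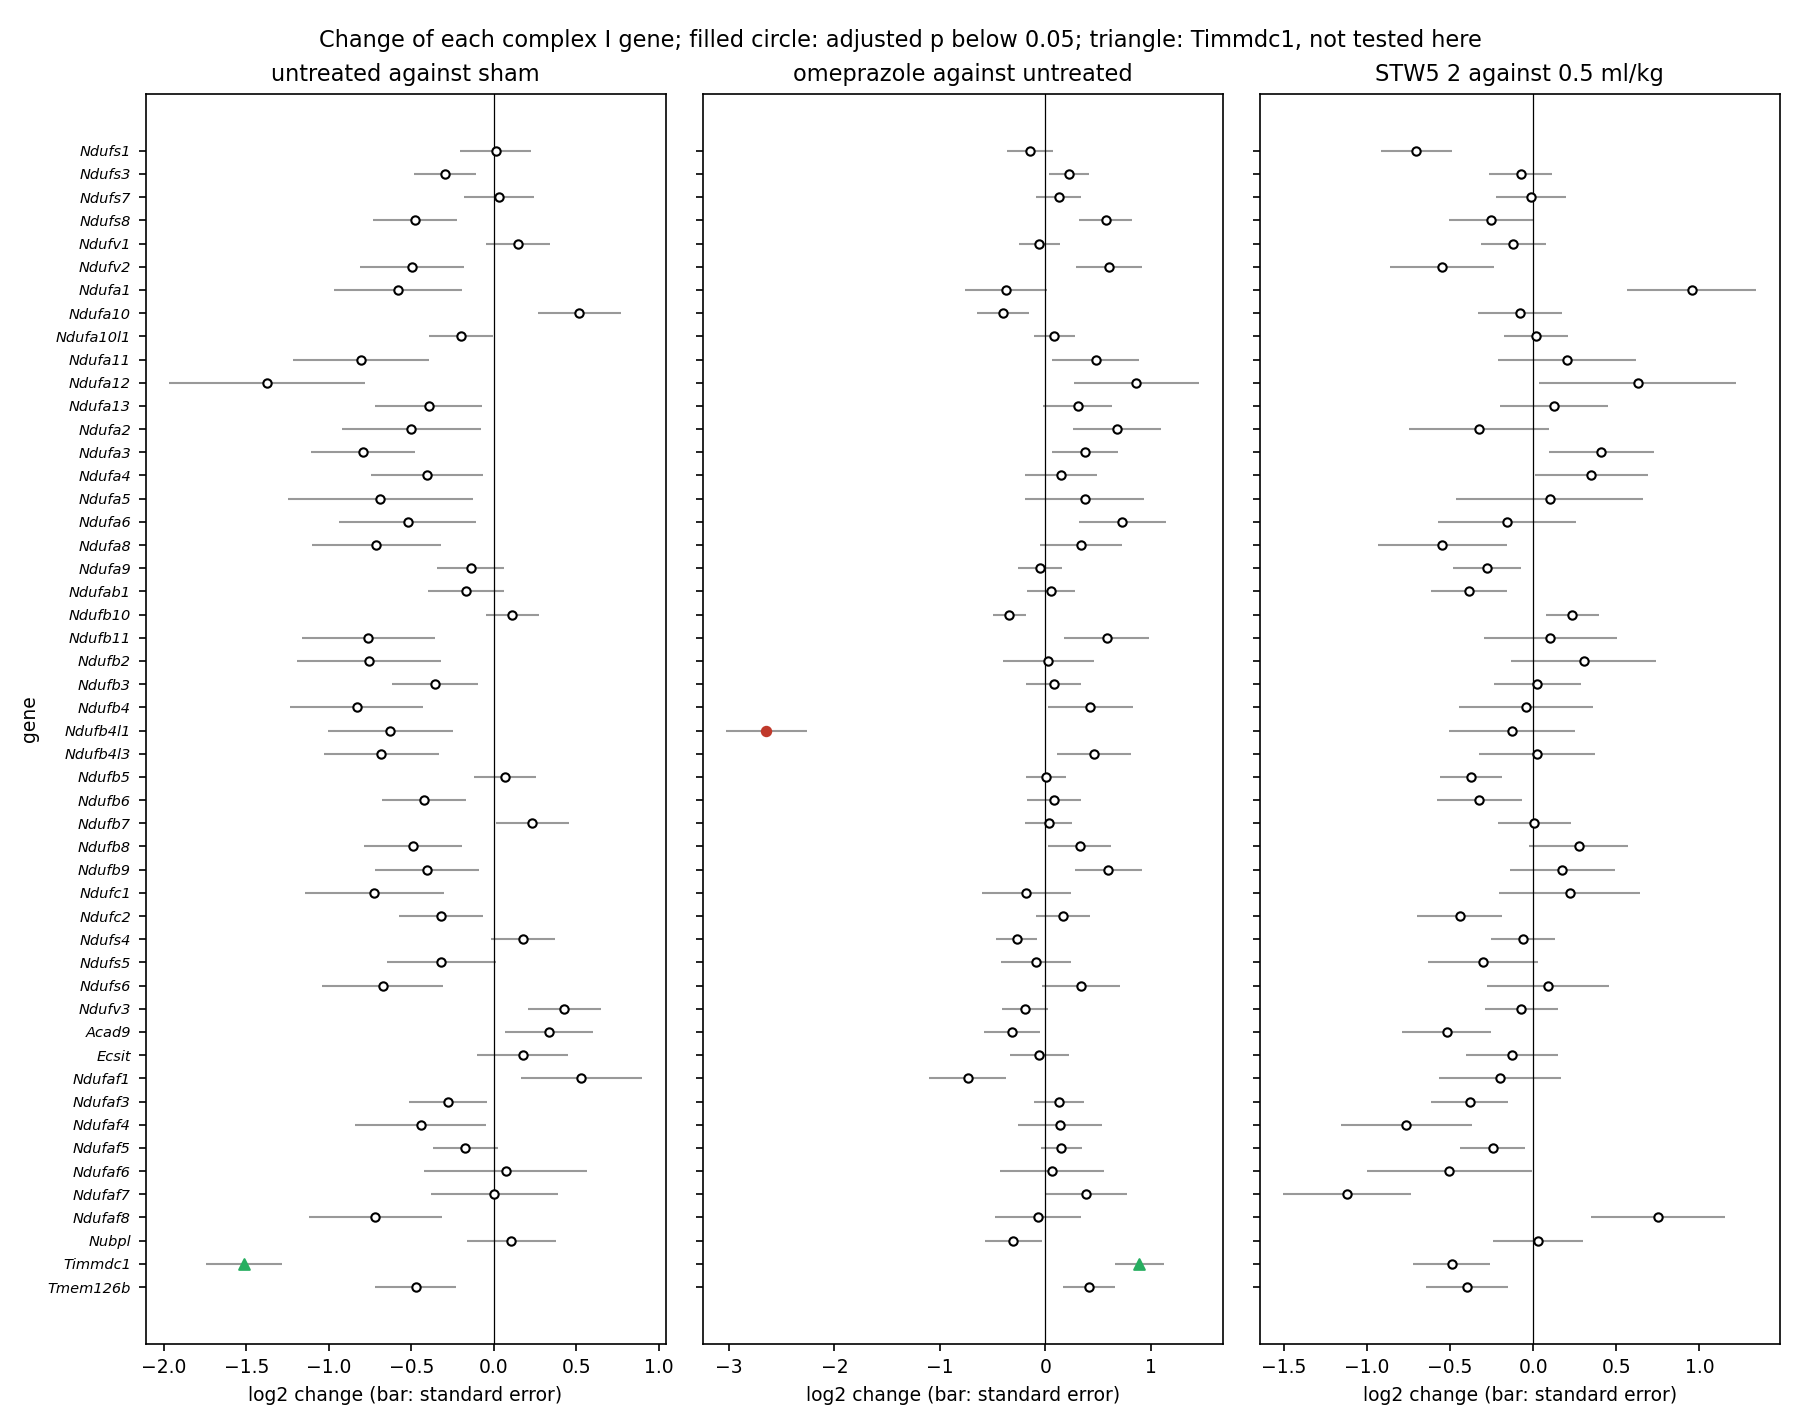
Log2 change of 50 of the 51 tested genes with its standard error in 3 comparisons. A filled circle marks an adjusted p below 0.05, which is Ndufb4l1 with omeprazole, and a triangle marks Timmdc1 where it was not tested.

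The counts of genes past the test were read against those over all 15240 genes tested. In untreated against sham rats 0 of 50 complex I genes passed, Timmdc1 left out. The share over all genes was 0.00656%. It is made up of Timmdc1 alone, which was chosen from this comparison, so that share is no test of Timmdc1. In omeprazole against untreated rats 1 of 50 passed, Ndufb4l1, against 4.18% of all genes. The planned count, which holds Timmdc1, is 2 of 51, but Timmdc1 was chosen on the untreated arrays used here and its value is no test. Against the mean of the STW5 doses 1 of 51 passed with omeprazole (4.86% of all genes), and against sham rats 1 of 50, Timmdc1 left out (4.74%). The shares of complex I genes are near or below the background. In each of the 5 comparisons of STW5 with untreated or sham rats or between its doses, 0 of 51 passed in limma, and the background was 0%. The count between the doses was 6 of 51 with normexp background, where 3752 of all genes passed. Its offset weighs unequally on the 2 doses, whose array signals differ, so that count is no separate evidence of a dose difference. The background itself rests on single arrays: without untreated array 1, 3014 of all genes passed for 2 ml/kg against untreated and 1761 for untreated against sham, and without STW5 2 ml/kg array 3, 1035 passed for 2 ml/kg against untreated. In these 3 fits 0 complex I genes passed. With the replicate block 513 of all genes passed for 2 ml/kg against untreated and 529 between the doses, again with 0 complex I genes.

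At an unadjusted p below 0.05, complex I genes other than Timmdc1 numbered 2 of 50 in untreated against sham rats, against 18.2% of all genes. With omeprazole they numbered 4 of 50 against untreated (15.5%), 2 of 50 against the STW5 mean (14%) and 3 of 50 against sham rats (14.3%). With STW5 they numbered 0 of 50 for the mean of doses (9.55%), 4 of 50 for 2 ml/kg (23.5%) and 0 of 50 for 0.5 ml/kg (5.95%), each against untreated rats. Between the doses they numbered 4 of 50 (26.6%), and for the STW5 mean against sham rats 1 of 50 (8.1%).

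The median change of the 50 genes minus that of all genes was between -0.25 and 0.15 in the 9 comparisons. In untreated against sham rats this difference was -0.18. By role it was -0.26 for 32 accessory subunits, 0.20 for 7 core subunits and 0.19 for 11 assembly factors. Between 2 and 0.5 ml/kg it was -0.25. Over the alternatives it ranged from -0.32 to 0.070 in untreated against sham rats, with the sign turned when no filter on dim probes was set. With Timmdc1 included, it ranged from -0.52 to 0.061 for 2 ml/kg against untreated, from -0.20 to 0.24 for 0.5 ml/kg against untreated and from -0.75 to 0.26 between the doses.

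In untreated against sham rats 26 of the 32 accessory subunits had a value below 0, and so had 61.9% of all genes. In the same comparison 13 of 13 erythroid, 14 of 14 T cell and 11 of 11 B cell markers were below 0, and 14 of 15 neutrophil markers were above 0. Of the other lists, 6 of 11 monocyte, 7 of 10 platelet and 3 of 4 eosinophil and basophil markers were above 0. Of 8 NK cell markers 7 were below 0. None of all these markers passed in limma. At an unadjusted p below 0.05 (18.2% of all genes) there were 8 erythroid, 9 T cell, 4 B cell and 8 neutrophil markers. In the other lists there were 5 monocyte markers higher and 1 lower, 2 platelet markers, 1 NK cell marker and 0 eosinophil and basophil markers. Their part in the sign of the accessory subunits was not tested.

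**Figure D4:**
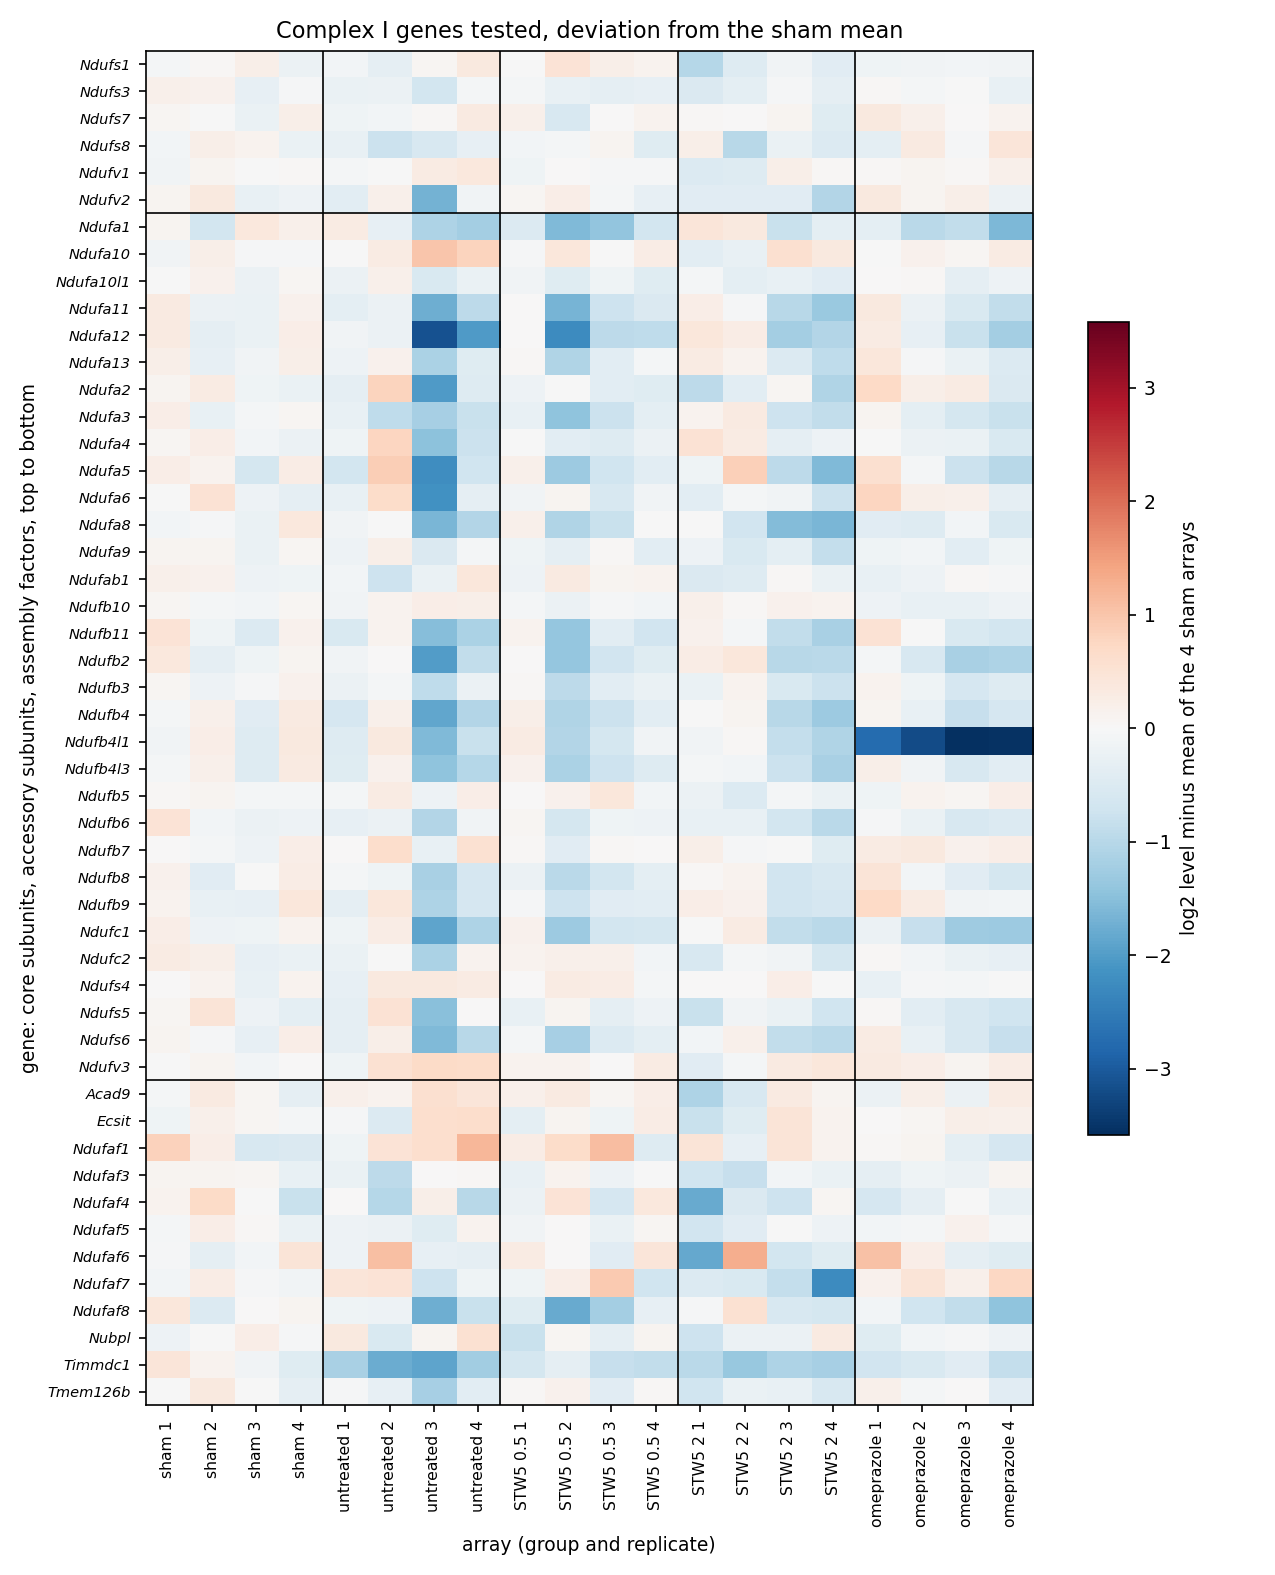
Deviation of 50 of the 51 tested complex I genes (rows, by role) from the mean of the 4 sham arrays, on the log2 scale, for 20 arrays (columns). Ndufb4l1 is low on the omeprazole arrays, and untreated array 3 and STW5 0.5 ml/kg array 2 are low in many accessory subunits.

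On untreated array 3 and STW5 0.5 ml/kg array 2 the accessory subunits were low relative to all genes, while the other roles were not. The pattern was not confined to them. Accessory subunits, core subunits and assembly factors were at -0.28, 0.57 and 0.29 on untreated array 4, and at -0.32, 0.24 and -0.0079 on omeprazole array 4. The 75th percentile signal was 266 on untreated array 3 and 308 on STW5 0.5 ml/kg array 2. On STW5 0.5 ml/kg array 3 it was 288, with accessory subunits at -0.15. The median deviation of the 50 genes from the sham mean was -0.17, 0.13, -0.98 and -0.22 on the 4 untreated arrays, and untreated array 3 was the lowest of all 20. On the same arrays the median over all genes was 0.035, -0.23, -0.21 and -0.24. Relative to all genes on untreated array 3, the accessory subunits were at -0.96, the core subunits at 0.27 and the assembly factors at 0.23, and 14 of the 50 genes lay above their sham mean. On STW5 0.5 ml/kg array 2 these values were -0.61, 0.24 and 0.35. The 13 tested erythroid markers, summed, were at 4535 times the 75th percentile signal on untreated array 3, the lowest of all arrays. They were at 13351, 10089 and 6137 on the other untreated arrays and at 9789 to 16367 in sham rats. On STW5 0.5 ml/kg array 2 the sum was 4930 and the median of the 50 genes -0.25. STW5 2 ml/kg array 4 had the next lowest median, -0.58, with a sum of 12454, and there all 3 roles were below all genes, at -0.46 for core subunits, -0.88 for accessory subunits and -0.25 for assembly factors. The part of the erythroid markers and of the array signal in these values was not tested.

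**Figure D5:**
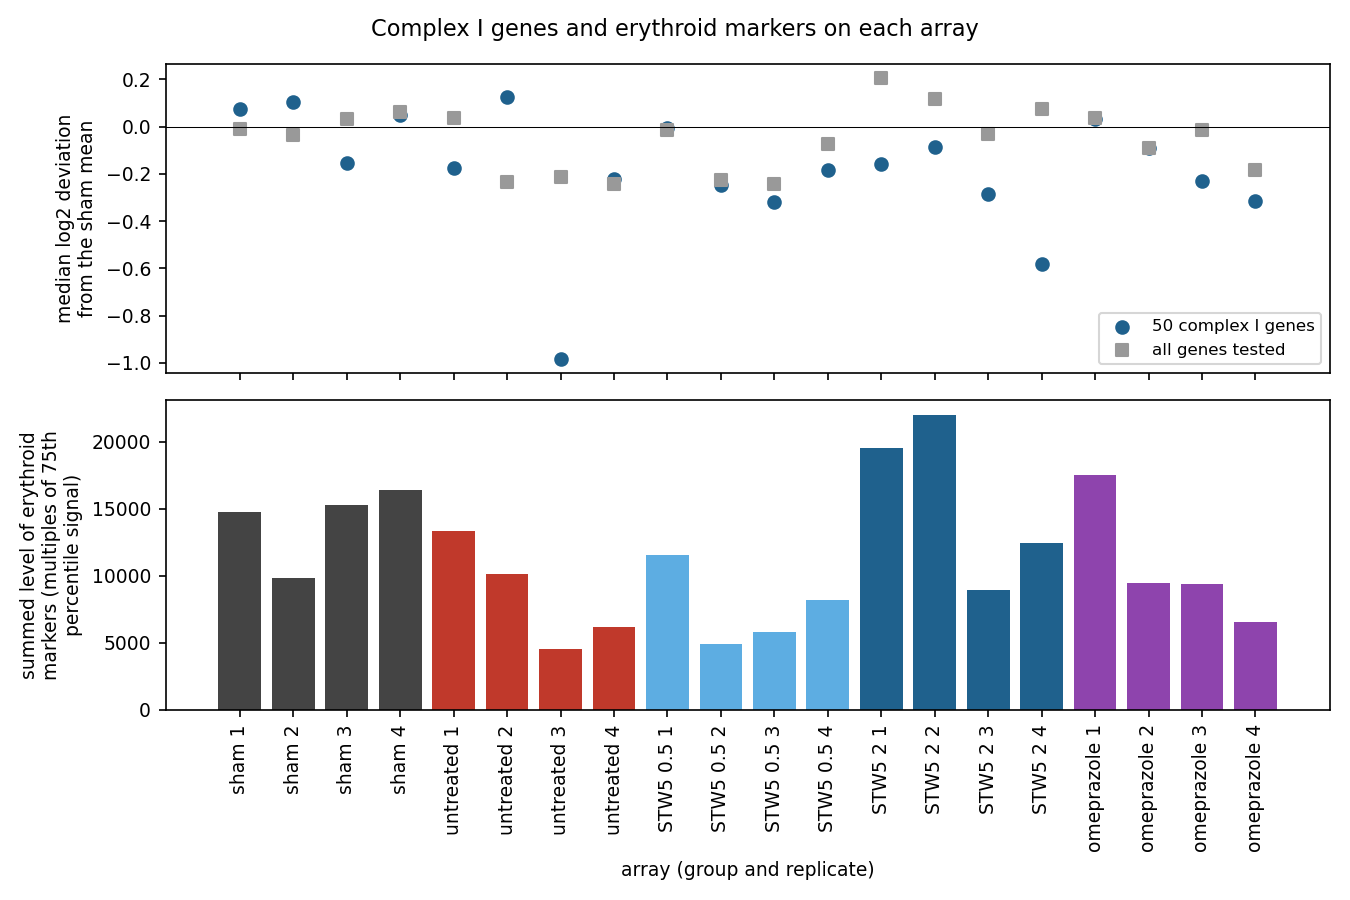
Upper: median log2 deviation from the sham mean of 50 complex I genes and of all genes on each array. Lower: summed level of erythroid markers, in multiples of the 75th percentile signal. Untreated array 3 is lowest in the median of the 50 complex I genes and in the erythroid markers, but not in the median of all genes.

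All 13 tested erythroid markers were well above background on every sham array, as were 14 of 14 T cell markers and 14 of 15 neutrophil markers. The summed neutrophil markers were at 848 on untreated array 2 and at 99.8 to 156 on the other untreated arrays, with 84.6 to 160 in sham rats. The summed T cell markers were at 13.3 on the same array and at 62.9 to 104 on the other untreated arrays, with 91.1 to 131 in sham rats. Their part in the changes of complex I genes was not tested.

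The other parts of the respiratory chain were counted alongside, and single calls are to be read against the share over all genes. In omeprazole against untreated rats (4.18% of all genes) 1 of 7 complex II genes passed, the membrane anchor Sdhc at -0.85 ± 0.23 (limma adjusted p = 0.0349), and none passed of 13 coenzyme Q and cytochrome c genes, 12 complex III, 18 complex IV and 18 complex V genes. Of 9 other enzymes that feed electrons into the chain 1 passed, the glycerol-3-phosphate dehydrogenase Gpd2 at -1.46 ± 0.39 (limma adjusted p = 0.0327). Of 13 regulators of mitochondrial biogenesis 1 passed, the mitochondrial DNA helicase Twnk at -1.12 ± 0.21 (limma adjusted p = 0.00148). None of 17 genes of the citric acid cycle passed in that comparison. Against the STW5 mean (4.86% of all genes) Idh3b of that cycle was higher with omeprazole by 0.63 ± 0.15 (limma adjusted p = 0.0157), while Sdhc was at -0.74 ± 0.20 (limma adjusted p = 0.0287) and Twnk at -1.07 ± 0.18 (limma adjusted p = 0.000448). Against sham rats (4.74% of all genes) Twnk was at -1.05 ± 0.21 (limma adjusted p = 0.00292). In untreated against sham rats none of these lists had a gene past the threshold.

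RefSeq promoters (GRCr8, 250 bases before to 50 after the gene start) were found for 48 of the 53 genes and searched on both strands. The NRF1 core GCGCATGC was in 8.33% of the complex I promoters and 2.47% of all 33469. Those 33469 were taken without a filter on the kind of gene, so the 2 sets can differ in more than complex I membership. The GABP/ETS site CCGGAAGT was in 8.33% and 3.81%, the YY1 core AAGATGGC in 18.75% and 3.17%, and the ERR site TCAAGGTCA in 0% and 0.43%. The promoter of Timmdc1 holds a GABP/ETS match, in capitals, from 40 to 33 bases before the gene start, and is shown because Timmdc1 is the gene described above, at chr11:75734488-75734547 on the plus strand.
Timmdc1 promoter: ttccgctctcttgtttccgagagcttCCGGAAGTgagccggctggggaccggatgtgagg
These matches are letters in a window and say nothing of binding. The YY1 matches located in complex I promoters lay 2 to 33 bases after the gene start, and their letters contain ATG. Whether they coincide with start codons was not tested.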

How the data were processed

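Per the file headers, the deposited intensity of each spot was made by Agilent Feature Extraction (version 10.7.3.1) with background subtracted and spatial trend removed. The value table of the authors, a ratio of that intensity to the median of the array, served as an alternative. Spots of a probe were averaged without outlier spots, and log2 levels were scaled to each array's 75th percentile. A gene was tested by the brightest of its probes that were well above background on at least 4 arrays. Group means of all 20 arrays were fitted with limma 3.58.1 in R 4.3.3 (lmFit, eBayes), two-sided, adjusted by Benjamini-Hochberg over 15240 genes, at 0.05. The labels do not say more than that each array is 1 animal. Of 30367 probes 21225 were named through RefSeq, and other names are the array's.

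Genes and lists were chosen with earlier results of these data known. Named genes were Timmdc1, every gene past the test, the 3 of smallest p in each direction per comparison, the core subunits, the highest and lowest of each role, untested genes and genes whose probes disagree where called. Ndufb4 and Ndufb4l3 were added after the values of Ndufb4l1 were seen. The plan left Timmdc1 out of the count only for untreated against sham rats. Leaving it out of the other counts was decided after they were seen, and both counts are given. A planned translation of probes against RefSeq proteins was not run. The values of 1 gene are not reported here, though it is in the counts and medians. The fit was run on simulated data in which values were independent between genes and arrays. No shared array or slide effect was simulated, so that run says nothing of such effects here.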

Additional observations from a re-analysis of the deposited data

Results flagged for a closer look

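A total of 5 levels stood apart within their group of 4 arrays, judged by the gap to the nearest array over the range of the group, among 145 groups checked, and chance gives such a gap in about 1 group of 20. Ndufa7, not above background, was at -5.41 on sham array 2, with the next at -4.71. Ndufa9 was at 0.80 on sham array 3, with the next at 1.10. Ndufb7 was at 1.84 on STW5 0.5 ml/kg array 2, with the next at 2.24. Ndufs4 was at 1.03 on untreated array 1, with the next at 1.62. Ndufv2 was at 0.75 on STW5 2 ml/kg array 4, with the next at 1.39. The change of Ndufb4l1 against untreated rats differed between omeprazole and the mean of the STW5 doses by -2.83 (log2), a difference tested in the fit (limma adjusted p = 4.86e-06).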

How the results depend on the processing

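The fall of Ndufb4l1 with omeprazole passed under all 33 alternatives in each of its 3 comparisons, from -2.96 to -1.44 against untreated, -3.00 to -1.57 against the STW5 mean and -3.44 to -1.88 against sham rats, with the smallest size under normexp background in each. The cause of other shifts was not tested.

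Counts of complex I genes past the threshold moved as follows. In omeprazole against untreated rats the count of 2, which includes Timmdc1, became 1 with normexp background, no filter on dim probes, probes well above background on all arrays, only the arrays compared and trend and robust eBayes, 1 with Timmdc1 left out, and 3 with array signal as a covariate (1191 of all genes). Leaving out 1 array gave 1 to 2, with 1 without untreated 2 or 3 or omeprazole 1, 2 or 3. Between the STW5 doses the count of 0 became 6 with normexp background and 2 with no filter, and leaving out 1 array gave 0 to 1, the 1 without STW5 2 ml/kg array 3 (805 of all genes). With quantile normalization omeprazole against the STW5 mean gave 2. Array weights, whose estimation stopped before it converged, gave 18 in untreated against sham (5903 of all genes), 18 in omeprazole against untreated (5637), 3 for STW5 2 ml/kg against untreated, 1 between doses, 14 in omeprazole against the STW5 mean, 8 against sham and 1 for the STW5 mean against sham.

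An alternative, without untreated arrays 1 and 2, was added after the data were seen. Those arrays were picked because they stood apart from the other untreated arrays, so it is no comparison of the study's groups. It gave 18 of 50 in untreated against sham (4339 of all genes), 6 in omeprazole against untreated (2006) and 5 for STW5 2 ml/kg against untreated (4525). In the other 6 comparisons its count did not change.

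Replicate numbers gave no clear pairing of the arrays: 19 of 40 same-numbered pairs correlated above 0.1 and 7 of 20 arrays were closest to their own number. The median correlation was 0.092 for same-numbered pairs and -0.036 for the others, so a weak pairing is not excluded. The counts that follow are of complex I genes. With the replicate block the counts were 0 in untreated against sham, 2 in omeprazole against untreated, 1 in omeprazole against the STW5 mean, 1 in omeprazole against sham and 0 in the other comparisons, as without it.

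With the STW5 doses exchanged, each single-dose value takes the other dose's: between doses Ndufa1 was -0.95, Ndufaf8 -0.75, Ndufb10 -0.24, Ndufs1 0.70, Ndufaf7 1.12 and Timmdc1 0.49. Against untreated, Ndufaf7 was 0.078 for 2 ml/kg, and Ndufc2 -0.032 and Ndufb10 0.013 for 0.5 ml/kg. In the authors' value table the same genes between doses were -0.80, -0.60, -0.085, 0.85, 1.27 and 0.64, Ndufaf7 was 0.14 for 2 ml/kg, and Tmem126b -0.053 and Ndufc2 -0.12 for 0.5 ml/kg. Normexp turned, between doses, Ndufb10 (-0.11) and Timmdc1 (0.40), Timmdc1 in omeprazole against the STW5 mean (-0.0006) and Ndufaf1 in the STW5 mean against sham (-0.13). Array signal as a covariate turned Ndufa12 (-0.45) and Ndufa3 (-0.22) for 2 ml/kg against untreated, Ndufa1 (-0.39) and Ndufaf8 (-0.52) between doses, and Ndufs4 (-0.0006) and Ndufa10 (-0.052) in the STW5 mean against sham. The mean of probes turned Ndufb10 with omeprazole (0.071 against untreated, 0.20 against the STW5 mean), and Ndufa4 in the STW5 mean against untreated ranged from -0.042 (without untreated array 3) to 0.71 when 1 array was left out. Dim probes, Timmdc1 among them, limit what can be read, and between doses the normexp offset weighs more on arrays of lower signal.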
